A study of Mus musculus with 32 samples.

Results

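Megakaryocyte-erythroid progenitors (MEPs) from mice with Jak2V617F blood were compared after the mutant allele was deleted and after its kinase was inhibited, and the quantity described here is the difference between those 2 responses. The members are 12 of the 32 libraries of the study, chosen by their labels, and the 8144 of 33924 genes that averaged at least 10 CPM (counts per 1000000 counts of a library) over those 12 libraries. Just inside that limit lay Kdr at 10.003 CPM and just outside it Tmem98 at 9.988 CPM. The day 7 response is MEPs from 3 mice given tamoxifen and sampled at day 7, set against MEPs from 3 vehicle mice of the same batch, A. The ruxolitinib response is MEPs from 3 mice after 7 days of ruxolitinib, set against MEPs from 3 vehicle mice of batch C. Both vehicle groups are labelled day 0.

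All 4 groups share one model. Marrow carrying the Jak2V617F allele was switched on ex vivo with mRNA for the recombinase Dre and transplanted into lethally irradiated recipients, so that every library, vehicle included, comes from a transplanted mouse. Tamoxifen then activates Cre, which removes the mutant allele, and ruxolitinib, a small-molecule inhibitor of the kinases JAK1 and JAK2, leaves the allele in place. The promoter that drives Cre, the strain, the ages and the share of recipient cells are not stated in the labels. No group given tamoxifen without a deletable allele is described, so effects of tamoxifen and of deletion cannot be told apart. Treatment and batch are paired (tamoxifen in A, ruxolitinib in C), and each response is therefore taken within its batch. The vehicle libraries of batches A and C carry the same 3 animal numbers in their descriptions, so the 2 responses are not independent and no correlation between them is given.

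The libraries held 11160696 to 20108752 counts at day 7 after tamoxifen, 20749870 to 24083993 in vehicle A, 40278670 to 55473241 under ruxolitinib, and 34392354 to 39667533 in vehicle C. The labelled cell type was checked against its defining genes. Gata1, the master erythroid and megakaryocytic transcription factor, lay between 569 and 874 CPM in all 12 libraries. Klf1, another erythroid factor, was uneven, with 28.7, 29.6 and 26.6 CPM at day 7, against 26.5, 131 and 66.9 CPM in vehicle A. It had 1150, 1050 and 812 CPM under ruxolitinib, against 106, 554 and 629 CPM in vehicle C. The Klf1 difference was -2.63 (edgeR adjusted p = 0.0319), a call lost in 10 of 24 alternatives. Gfi1b lay between 461 and 906 CPM, Car1 between 3070 and 8330 CPM and Zfpm1 between 3.98 and 22.2 CPM. Tfrc, Epor and Kit are given below. Ly6a, which encodes the stem cell antigen Sca1 that MEPs lack, was at most 1.59 CPM, and Fcgr3, a marker of granulocyte-macrophage progenitors, lay between 0.525 and 5.71 CPM. Summed markers of other cell types differed from the vehicles at day 7 in most lists given here, and under ruxolitinib in some of them. The 24 granulocyte and monocyte progenitor genes summed to 874 to 991 CPM at day 7, within the 663 to 1000 CPM of vehicle A. Under ruxolitinib they summed to 1330 to 1450 CPM, against 827 to 1240 CPM in vehicle C. Gene by gene, 5 of the 7 tested (71.4%) rose at day 7 and none fell, where 11.6% of all tested genes rose. Under ruxolitinib 4 of the 7 (57.1%) rose, where 2.41% of all tested genes rose. Over 24 alternatives the counts that rose ran between 2 and 5 at day 7 and between 2 and 6 under ruxolitinib. One of them, Mpo, rose by 4.83 on the log2 scale under ruxolitinib and by 1.91 at day 7 (edgeR adjusted p = 0.0023 and 0.0378). The Mpo difference was -2.92 (edgeR adjusted p = 0.0287), a call lost in 8 of 24 alternatives. The summed level of 36 megakaryocyte and platelet genes was 795 to 1400 CPM at day 7, against 275 to 364 CPM in vehicle A, and 472 to 842 CPM under ruxolitinib, against 183 to 379 CPM in vehicle C. The 15 late neutrophil genes summed to 92.9 to 147 CPM at day 7, against 24.9 to 31.1 CPM in vehicle A, and to 14.5 to 26.3 CPM under ruxolitinib, against 8.12 to 23.3 CPM in vehicle C, so that ruxolitinib and vehicle C overlapped. The 17 macrophage genes other than Apoe summed to 307 to 399 CPM at day 7, against 225 to 278 CPM in vehicle A, and to 192 to 197 CPM under ruxolitinib, within the 184 to 254 CPM of vehicle C. The 9 eosinophil genes summed to 15.4 to 31.9 CPM at day 7, against 4.76 to 6.93 CPM in vehicle A, and to 0.478 to 0.815 CPM under ruxolitinib, against 1.21 to 3.31 CPM in vehicle C. The 14 mast cell and basophil genes summed to 389 to 497 CPM at day 7, against 203 to 252 CPM in vehicle A, and to 286 to 408 CPM under ruxolitinib, against 154 to 197 CPM in vehicle C. Lymphoid genes summed to 211 to 311 CPM at day 7, against 56 to 64.8 CPM in vehicle A, and to 78.2 to 112 CPM under ruxolitinib, against 14.4 to 59.5 CPM in vehicle C. The part of other cells in the results below was not tested, and in such bulk samples fewer cells of a type and less RNA per cell cannot be told apart.

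As background, JAK2 is the kinase bound to the receptors for erythropoietin, thrombopoietin and several other cytokines. The V617F change keeps it active without a ligand and is the most common driver of the myeloproliferative neoplasms. Active JAK2 phosphorylates STAT5, which switches on genes such as Cish, a feedback inhibitor that damps the same receptors. Type I interferon signals through different kinases of the family, JAK1 and TYK2, to factors that include STAT2 and IRF9. JAK1 is thus both a kinase of the interferon route and a target of ruxolitinib.

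Promoter windows are shown for one gene of each of the 3 outcomes described below, namely a fall under both treatments (Cish), opposite responses (Oas3) and a fall at day 7 without a called ruxolitinib response (Cdc20). Each runs from 250 bases before to 50 bases after the transcript start in RefSeq on GRCm38.p6, and capitals mark the motif searched for on both strands. The windows lie at chr9:107296409-107296708 on the plus strand for Cish, chr5:120777610-120777909 on the minus strand for Oas3 and chr4:118437294-118437593 on the minus strand for Cdc20.
Cish: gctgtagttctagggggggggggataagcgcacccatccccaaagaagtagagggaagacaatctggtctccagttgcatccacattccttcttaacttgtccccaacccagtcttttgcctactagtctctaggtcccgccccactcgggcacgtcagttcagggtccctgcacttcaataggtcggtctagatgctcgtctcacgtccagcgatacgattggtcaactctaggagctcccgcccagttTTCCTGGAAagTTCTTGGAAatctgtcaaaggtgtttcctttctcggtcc
Oas3: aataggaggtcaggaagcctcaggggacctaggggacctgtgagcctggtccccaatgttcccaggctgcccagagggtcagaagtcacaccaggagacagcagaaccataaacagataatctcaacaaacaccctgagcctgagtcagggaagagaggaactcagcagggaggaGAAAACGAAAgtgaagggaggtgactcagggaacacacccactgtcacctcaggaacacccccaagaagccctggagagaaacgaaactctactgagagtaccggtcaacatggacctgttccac
Cdc20: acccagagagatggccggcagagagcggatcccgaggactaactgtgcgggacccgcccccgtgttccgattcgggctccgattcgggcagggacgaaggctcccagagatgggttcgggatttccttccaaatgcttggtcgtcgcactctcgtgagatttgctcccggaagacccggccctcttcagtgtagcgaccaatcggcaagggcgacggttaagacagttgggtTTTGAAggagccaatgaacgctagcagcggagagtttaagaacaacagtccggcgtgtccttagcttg
The Cish window holds 2 matches to TTCNNNGAA, the palindrome bound by STAT factors, the first of which begins at base 251 of the window. The Oas3 window holds 1 match to GAAANNGAAA, the core of the interferon-stimulated response element, and the Cdc20 window 1 match to TTTGAA, the cell cycle homology region found upstream of many mitotic genes.

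Of all 32851 windows in the table, 8.30% held the STAT letters, 3.44% those of the interferon element and 17.9% TTTGAA. Counted per gene, with a match in any of its windows, the shares over the 6569 tested genes with a window were 8.24%, 3.79% and 14.7%. A window was found for 17 of the 23 interferon-stimulated genes that were higher in the difference (below), and 7 of these 17 (41.2%) held GAAANNGAAA, as did 2 of the 8 members (25.0%) that were not called. Of 38 mitosis and spindle genes, 34 had a window and 24 of these (70.6%) held TTTGAA. These matches describe letters in one window and are neither sites nor causes. Windows for Irf7 and Ifi44 hold no match to GAAANNGAAA.

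Differences between the 2 responses were widespread and ran in both directions. With an edgeR quasi-likelihood test and Benjamini-Hochberg adjustment over all 8144 genes at an adjusted p of 0.05, 2050 genes (25.2%) differed between the responses, 1038 (12.7%) with a higher and 1012 (12.4%) with a lower day 7 response. In the same fit, 2238 genes (27.5%) changed at day 7, 948 (11.6%) upward and 1290 (15.8%) downward. Ruxolitinib changed 739 genes (9.07%), 196 (2.41%) upward and 543 (6.67%) downward. The ruxolitinib count rested on single libraries. It was 301 without ruxolitinib replicate 1, 187 without ruxolitinib replicate 2 and 1296 without vehicle C replicate 3. The vehicle groups of batches C and A differed in 70 genes (0.860%). That fit leaves out their shared animal numbers, and a limma fit with the animal number as a block called 1025. The labels do not say how the mice of a group were housed or processed, so p-values measure only the spread between these samples.

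The 2050 genes fell into 5 classes. The largest, 1175 genes, changed at day 7 without a called ruxolitinib response, and 817 of them fell while 358 rose. Another 335 changed under ruxolitinib without a called day 7 response, 294 of them downward and 41 upward. A set of 149 genes moved in opposite directions, of which 119 (1.46% of all tested) rose at day 7 and fell under ruxolitinib and 30 did the reverse. Only 18 moved the same way in both with a called difference, and 373 passed the test of the difference with neither response called. Outside the 2050, 130 genes were called in both responses with the same sign and not in the difference, 81 up and 49 down. The median half-width of the 95% interval of the difference over those 130 was 0.84 on the log2 scale, so they are not shown to respond alike.

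**Figure D1:**
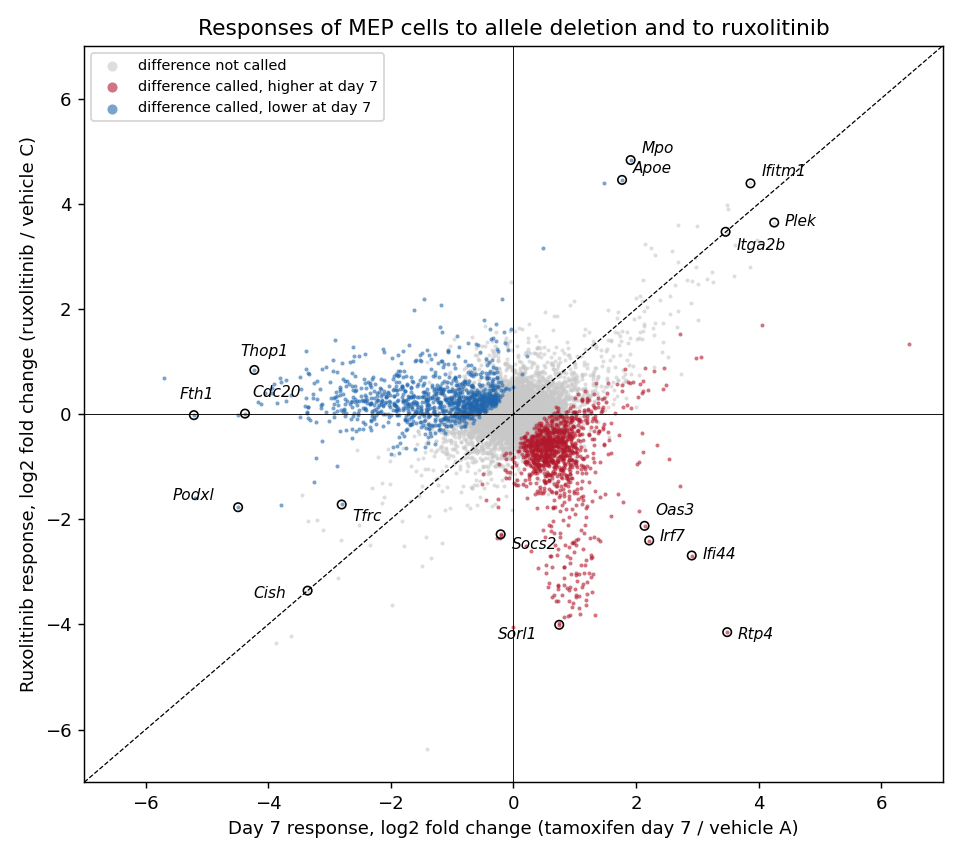
Log2 day 7 response (x axis, tamoxifen over vehicle A) against log2 ruxolitinib response (y axis, ruxolitinib over vehicle C) for each tested gene, with genes called higher in the difference in red, called lower in blue, the rest in grey, and a dashed line of equal responses. Interferon-stimulated genes such as Rtp4 lie at lower right, genes that fell at day 7 such as Fth1 and Cdc20 lie at the left near zero on the y axis, and Cish and Itga2b lie near the line.

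Jak2 itself (chr19:29251828-29313080, plus strand, in the GENCODE M21 annotation of mm10) had 28.3, 21.8 and 29.8 CPM at day 7, against 15.8, 19.6 and 17.4 CPM in vehicle A. It had 13.4, 14 and 23.4 CPM under ruxolitinib, against 17.8, 34.1 and 22.7 CPM in vehicle C. The day 7 libraries lay above their vehicles, whereas ruxolitinib and vehicle C libraries overlapped. The difference was 1.15 ± 0.40 on the log2 scale (SE, 3 libraries a group) and just missed the threshold (edgeR adjusted p = 0.051). With the animal number of the vehicles as a block, a limma fit gave 1.20 with an adjusted p of 0.0273. Gene-level counts do not separate mutant from wild-type transcripts, so Jak2 is no check of the deletion.

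Type I interferon-stimulated genes rose at day 7 and fell under ruxolitinib. Of 47 listed genes 31 were tested, and 23 had a higher day 7 response than ruxolitinib response (1038 genes, 12.7%, over all tested) while none had a lower one. The median difference of the list was 2.01 on the log2 scale, against 0.02 over all tested genes. At day 7, 22 of the 31 (71%) rose and none fell, with a median of 1.13, where 11.6% of all tested genes rose. When genes of low level were kept in, 12 rose. Some members, at least Rtp4 and Ifi44 (levels below), reached the required mean CPM only through their day 7 libraries. The shares of the list that were higher in the difference and at day 7 are thus partly set by the filter. Under ruxolitinib 16 (51.6%) fell and 1 rose, with a median of -0.82, where 6.67% of all tested genes fell. The number that fell was 8 without ruxolitinib replicate 2. Of the 31, 15 (48.4%) were called in both responses with opposite signs, against 1.46% of all tested genes. Over 24 alternatives the count of higher members in the difference ran between 15 and 26, with no member lower in any of them. Among the 24 members with at least 5 CPM per kb of exon the count was 17, where 5.76% of the 5905 tested genes at that level were higher.

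Rtp4, which encodes a chaperone that also restrains viral replication, had the largest positive difference of any named gene. It had 69.7, 68.2 and 78.4 CPM at day 7, against 10.6, 3.10 and 5.54 CPM in vehicle A. Under ruxolitinib it had 0.0489, 0.418 and 0.531 CPM, against 8.82, 2.78 and 6.25 CPM in vehicle C. The day 7 libraries lay far above and the ruxolitinib libraries far below every vehicle library. The day 7 response was 3.49 ± 0.57 and the ruxolitinib response -4.15 ± 0.64, a difference of 7.63 ± 0.86 (log2, SE; edgeR adjusted p = 7.72e-05). Rtp4 spans chr16:23520291-23614222 on the plus strand.

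Irf7, the transcription factor that amplifies the interferon response, moved by similar amounts in opposite directions. Its level was 126, 105 and 140 CPM at day 7, against 31.4, 23.9 and 24.6 CPM in vehicle A. It was 5.43, 4.01 and 6.48 CPM under ruxolitinib, against 35.9, 27.3 and 21.1 CPM in vehicle C. The vehicle groups lay together, with no overlap with either treatment. Irf7 rose by 2.22 ± 0.24 at day 7 (edgeR adjusted p = 3.24e-05) and fell by 2.40 ± 0.24 under ruxolitinib (edgeR adjusted p = 0.000388), and the difference was 4.62 ± 0.34 (edgeR adjusted p = 7.21e-06).

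The sensors and effectors of antiviral defence followed. Oas3, one of the enzymes that make the second messenger activating RNase L, had 65.8, 55.6 and 84.3 CPM at day 7, against 18.6, 15.8 and 12.3 CPM in vehicle A. Under ruxolitinib it had 4.40, 1.75 and 1.62 CPM, against 16.5, 11 and 6.49 CPM in vehicle C. Neither treatment overlapped its vehicle, and the difference was 4.26 ± 0.58 (edgeR adjusted p = 0.000326), or 4.88 without ruxolitinib replicate 1. The Oas3 ruxolitinib response of -2.12 ± 0.41 (edgeR adjusted p = 0.00968) was not called without ruxolitinib replicate 2 (adjusted p = 0.0639), and was -2.74 without ruxolitinib replicate 1. Dhx58, a regulator of the RNA sensors RIG-I and MDA5, had 53.1, 67.8 and 66.1 CPM at day 7, against 23.5, 21 and 17.4 CPM in vehicle A. It had 3.84, 3.99 and 6.86 CPM under ruxolitinib, against 22.9, 18.5 and 14.5 CPM in vehicle C. Again both treatments were separate from their vehicles, on opposite sides, with a difference of 3.52 ± 0.37 (edgeR adjusted p = 4.74e-05). Oas1a and Oasl1, further members of the oligoadenylate synthetase family, had differences of 3.45 ± 0.49 and 2.94 ± 0.29 (edgeR adjusted p = 0.000418 and 3.6e-05).

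Dhx58, Oas1a, Oasl1 and Usp18 were chosen after their values were seen. Usp18, which removes ISG15 from proteins and damps the interferon receptor, was weighted towards ruxolitinib. It had 73.1, 62 and 65.9 CPM at day 7, against 34.8, 43.3 and 22.9 CPM in vehicle A. It had 4.96, 6.27 and 6.99 CPM under ruxolitinib, against 38.4, 37.5 and 23.5 CPM in vehicle C. The day 7 response was 0.99 ± 0.25 and the ruxolitinib response -2.45 ± 0.27, with a difference of 3.44 ± 0.37 (edgeR adjusted p = 5.28e-05). Ifi44, an interferon-induced cytoplasmic protein, had 33.6, 33 and 36.8 CPM at day 7, against 2.88, 4.54 and 6.34 CPM in vehicle A. It had 0.196, 0.104 and 0.266 CPM under ruxolitinib, against 1.22, 1.60 and 0.840 CPM in vehicle C. All 3 libraries of each treatment lay on one side of their vehicles, although the vehicles themselves differed by -1.91 (C over A, edgeR adjusted p = 0.0437). The Ifi44 difference was 5.60 ± 0.56 (edgeR adjusted p = 3.57e-05), and its ruxolitinib response of -2.69 ± 0.43 (edgeR adjusted p = 0.00379) was not called with the animal number as a block (limma adjusted p = 0.0779).

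**Figure D2:**
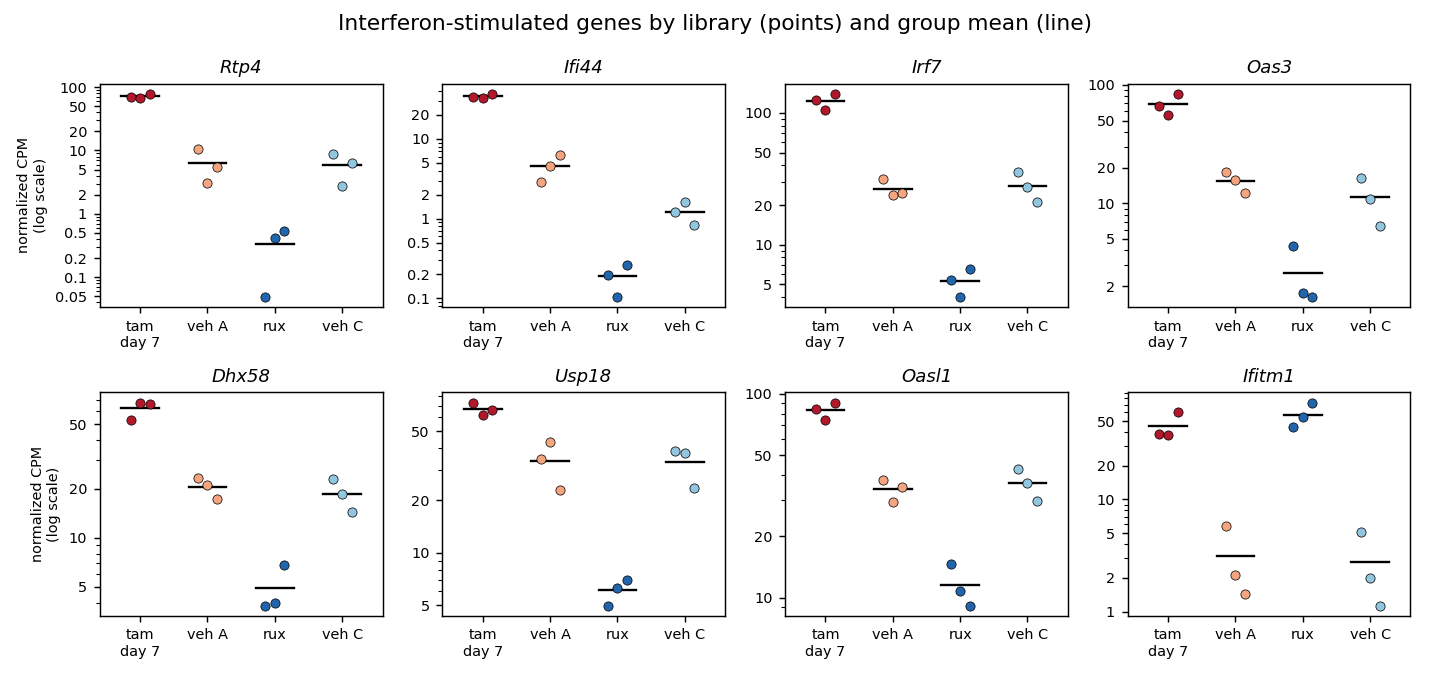
Level of 8 interferon-induced genes in each of the 12 libraries (points, normalised CPM on a log axis), with the mean of each group as a bar, day 7 left of vehicle A and ruxolitinib left of vehicle C. In Rtp4, Ifi44, Irf7, Oas3, Dhx58, Usp18 and Oasl1 the day 7 libraries lie above and the ruxolitinib libraries below their vehicles, and Ifitm1 lies above its vehicles under both treatments.

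The interferon-inducible GTPases Irgm1 and Tgtp2, which act against intracellular pathogens, had differences of 1.25 ± 0.21 (edgeR adjusted p = 0.00122) and 3.24 ± 0.70 (edgeR adjusted p = 0.00569). Of the 5 tested members of that family 4 (80%) were higher in the difference, against 12.7% of all tested genes. The Tgtp2 difference was 3.97 without vehicle A replicate 1 and 2.62 without vehicle C replicate 1. When genes of low level were kept in, 1 of the family was higher and the Irgm1 difference was 0.65 (edgeR adjusted p = 0.203).

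Ifitm1, a membrane protein that limits viral entry and is listed among the interferon-stimulated genes, did the opposite of the list under ruxolitinib. It had 38, 37.7 and 60.8 CPM at day 7, against 5.77, 2.10 and 1.44 CPM in vehicle A. It had 44.3, 54.1 and 73.2 CPM under ruxolitinib, against 5.08, 2.01 and 1.13 CPM in vehicle C. Both treatments lay clear above their vehicles. Ifitm1 rose by 3.87 ± 0.58 at day 7 (edgeR adjusted p = 0.000389) and by 4.39 ± 0.59 under ruxolitinib (edgeR adjusted p = 0.00142). These responses were 4.68 without vehicle A replicate 1 and 5.19 without vehicle C replicate 1. The difference was -0.52 with a 95% interval between -2.14 and 1.10, and Ifitm1 was the one member of the list that rose under ruxolitinib.

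Unnamed transcripts, pseudogenes and receptor segments aside, the 12 largest negative differences belonged to genes that fell at day 7 and were not called lower under ruxolitinib. They had differences between -5.19 and -4.35, day 7 responses between -5.21 and -3.39, and ruxolitinib responses between -0.03 and 1.20 on the log2 scale. Only genes called in the difference with all libraries of at least 1 treatment on one side of their vehicles could be chosen. Separation was thus part of the choice, and in all 12 it held at day 7, below vehicle A. They serve varied functions, among them iron storage (Fth1), peptide cleavage (Thop1), the mitochondrial ATP synthase (Atp5d), mitotic exit (Cdc20) and transport of monocarboxylate carriers to the membrane (Bsg).

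Fth1 encodes the ferritin heavy chain, which stores iron in a form that cannot do damage. It had 80.6, 65.2 and 70.8 CPM at day 7, against 1254, 3976 and 2797 CPM in vehicle A. It had 3012, 3619 and 2930 CPM under ruxolitinib, against 2500, 4626 and 2567 CPM in vehicle C. The day 7 libraries stood alone and the other 9 libraries overlapped. Fth1 fell by 5.21 ± 0.40 at day 7 (edgeR adjusted p = 2.2e-06), the ruxolitinib response was -0.02 ± 0.34, and the difference was -5.19 ± 0.50 (edgeR adjusted p = 3.18e-05). Fth1 spans chr19:9980598-9985098 on the plus strand. Slc48a1, which carries heme out of lysosomes, had a difference of -2.68 ± 0.26 (edgeR adjusted p = 3.19e-05), with a fall of 1.96 ± 0.19 at day 7 and a ruxolitinib response of 0.73 ± 0.18. Of 24 heme synthesis and iron handling genes, 4 (16.7%) had a lower difference, against 12.4% of all tested genes, and none a higher one. All 24 had at least 5 CPM per kb of exon, a level at which 16.3% of tested genes were lower. The lower count of the list was 7 without vehicle C replicate 2.

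Thop1, a cytosolic metallopeptidase, had 10.5, 5.88 and 9.17 CPM at day 7, against 120, 183 and 179 CPM in vehicle A. It had 374, 355 and 249 CPM under ruxolitinib, against 187, 166 and 194 CPM in vehicle C. It was thus low in one treatment and high in the other, without overlap with the vehicles. The difference was -5.06 ± 0.33 (edgeR adjusted p = 3.56e-06). The ruxolitinib response of Thop1, 0.84 ± 0.22 (edgeR adjusted p = 0.0342), was not called without ruxolitinib replicate 1 or 2 (adjusted p = 0.132 and 0.131), without vehicle C replicate 1 or 2 (0.0637 and 0.0802) or without day 7 replicate 3 (0.0512).

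Cdc20, the activator of the anaphase-promoting complex, had 27.4, 11.9 and 25.4 CPM at day 7, against 347, 536 and 471 CPM in vehicle A. It had 564, 595 and 450 CPM under ruxolitinib, against 534, 599 and 465 CPM in vehicle C. The ruxolitinib and vehicle libraries overlapped and the day 7 libraries were low. Cdc20 fell by 4.38 ± 0.30 at day 7 (edgeR adjusted p = 1.2e-06), its ruxolitinib response was 0.01 ± 0.26, and the difference was -4.39 ± 0.38 (edgeR adjusted p = 1.79e-05).

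Other mitosis and spindle genes moved less and not all together. Of the 38 tested, 18 (47.4%) fell at day 7 and none rose, where 15.8% of all tested genes fell. Under ruxolitinib 4 (10.5%) fell, against 6.67% of all tested genes, and 2 without ruxolitinib replicate 1 or 2. In the difference 10 (26.3%) were lower and 1 higher, against 12.4% and 12.7% of all tested genes, with a median of -0.41. The 10 became 6 without day 7 replicate 3, vehicle A replicate 2, ruxolitinib replicate 1, ruxolitinib replicate 2 or vehicle C replicate 1. Ccnb2, a B-type cyclin of mitotic entry, had 80.4, 57.2 and 59.5 CPM at day 7, against 200, 432 and 298 CPM in vehicle A. It had 293, 311 and 324 CPM under ruxolitinib, against 264, 464 and 326 CPM in vehicle C. Only the day 7 libraries lay apart, with a difference of -2.05 ± 0.37 (edgeR adjusted p = 0.00197). Cenpa, the histone variant of the centromere, had a difference of -2.07 ± 0.37 (edgeR adjusted p = 0.00186). The exception was Cenpf, a kinetochore protein, which fell under ruxolitinib by 0.86 and had a difference of 0.74 ± 0.19 (edgeR adjusted p = 0.0154), and which is named here after its value was seen. Among 42 DNA replication and nucleotide synthesis genes, 9 (21.4%) were lower and none higher in the difference, against 12.4% lower over all tested genes. Those 9 became 14 without vehicle C replicate 2 and 14 with the animal number as a block. All 38 mitosis genes and 41 of the 42 replication genes had at least 5 CPM per kb of exon. At that level 16.3% of tested genes were lower, and between 20 and 100 CPM per kb 21.5%, so the replication share is near that of its level.

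Genes of amino acid supply that the transcription factor ATF4 controls fell at day 7 and on the whole did not fall under ruxolitinib. Of 17 tested members 9 were lower in the difference (12.4% over all tested) and none higher, with a median of -0.88, and the lower count lay between 9 and 12 over 24 alternatives. At day 7, 10 of the 17 (58.8%) fell, where 15.8% of all tested genes fell. Under ruxolitinib 1 rose and 1 fell (5.88% each), against 2.41% and 6.67% of all tested genes. Slc3a2, the shared heavy chain of several amino acid transporters, had 25.6, 27.5 and 28.8 CPM at day 7, against 132, 243 and 219 CPM in vehicle A. It had 307, 297 and 268 CPM under ruxolitinib, against 239, 303 and 230 CPM in vehicle C. The day 7 libraries were the low ones, and the difference was -3.03 ± 0.29 (edgeR adjusted p = 2.53e-05). Mthfd2, a mitochondrial enzyme of folate metabolism, had 49.7, 37.9 and 40.2 CPM at day 7, against 214, 327 and 252 CPM in vehicle A. It had 198, 201 and 196 CPM under ruxolitinib, against 195, 275 and 254 CPM in vehicle C. Its difference was -2.35 ± 0.25 (edgeR adjusted p = 5.85e-05), with only the day 7 libraries apart from their vehicles. Eif4ebp1, which holds back cap-dependent translation, had a difference of -3.97 ± 0.57 (edgeR adjusted p = 0.000428).

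Nuclear genes of oxidative phosphorylation and proteasome subunits also fell at day 7 in part. Under ruxolitinib 39 of 43 and 29 of 32 of them had values above 0, and 3 (6.98%) and 1 (3.12%) of the lists passed the test, where 2.41% of all tested genes rose. Such values were not particular to these lists. Their median ruxolitinib responses were 0.21 and 0.19, against 0.08 for tested genes of 20 to 100 CPM per kb of exon and 0.21 above that. All 43 cytosolic ribosomal protein genes also had values above 0. Of 43 oxidative phosphorylation genes 17 (39.5%) were lower in the difference and none higher, against 12.4% lower over all tested genes. Among tested genes of 20 to 100 CPM per kb of exon 21.5% were lower, and of those over 100 CPM per kb 24.8%. The median of the oxidative phosphorylation list was -0.57, and 11 of its genes were lower without ruxolitinib replicate 2. At day 7, 15 of the list (34.9%) fell, where 15.8% of all tested genes fell. That count was 9 without day 7 replicate 2 and 9 without vehicle A replicate 3. Atp5b, the catalytic beta subunit of ATP synthase, had 435, 265 and 456 CPM at day 7, against 3557, 4345 and 3832 CPM in vehicle A. It had 4827, 4857 and 4411 CPM under ruxolitinib, against 4654, 4394 and 3852 CPM in vehicle C. The day 7 libraries lay far below all others, with a difference of -3.47 ± 0.26 (edgeR adjusted p = 7.79e-06). None of 11 mitochondrially encoded RNAs was called in the difference, whose median over them was 0.00 (edgeR). At an unadjusted p under 0.05 edgeR counted 1, and DESeq2 called 0, limma with sample weights 2 and limma with the animal block 1. With an offset for GC content and exon length edgeR called 5 of the 11, all higher.

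Of 32 proteasome subunits 15 (46.9%) were lower in the difference and none higher, with a median of -0.53, against 12.4% lower over all tested genes. The lower count was 7 among genes refitted at 5 CPM per kb or more and 8 with an offset for GC content and exon length. At day 7, 15 of the subunits (46.9%) fell, where 15.8% of all tested genes fell. Those 15 became 8 without day 7 replicate 1, 9 without day 7 replicate 2 and 7 without vehicle A replicate 3. Psmb4, a beta subunit of the core particle, had 120, 84.8 and 101 CPM at day 7, against 246, 257 and 253 CPM in vehicle A. It had 244, 287 and 212 CPM under ruxolitinib, against 245, 279 and 189 CPM in vehicle C. Its difference was -1.36 ± 0.25 (edgeR adjusted p = 0.00191), with overlap under ruxolitinib and none at day 7. Psmb8, a subunit of the interferon-induced immunoproteasome, was the member that rose at day 7.

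Single genes of other groups behaved in the same manner. Bax, which permeabilises the outer mitochondrial membrane in apoptosis, had 26.5, 24.6 and 25.5 CPM at day 7, against 135, 116 and 106 CPM in vehicle A. It had 199, 209 and 153 CPM under ruxolitinib, against 233, 164 and 148 CPM in vehicle C. The day 7 libraries were nearly equal and low, and the difference was -2.26 ± 0.26 (edgeR adjusted p = 9.83e-05). An offset for GC content and exon length gave a Bax difference of -0.76 (edgeR adjusted p = 0.109). Mafk, a small partner protein of the erythroid factor NF-E2, had a difference of -2.83 ± 0.34 (edgeR adjusted p = 0.000112). Rpl13, a protein of the large ribosomal subunit, had a difference of -4.19 ± 0.56 (edgeR adjusted p = 0.000289). In all, 3 of 43 ribosomal protein genes (6.98%) were lower, below the 12.4% of all tested genes. The ribosomal count was 20 without vehicle C replicate 2 and 8 without vehicle A replicate 1. The median difference of the ribosomal protein genes was -0.52.

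**Figure D3:**
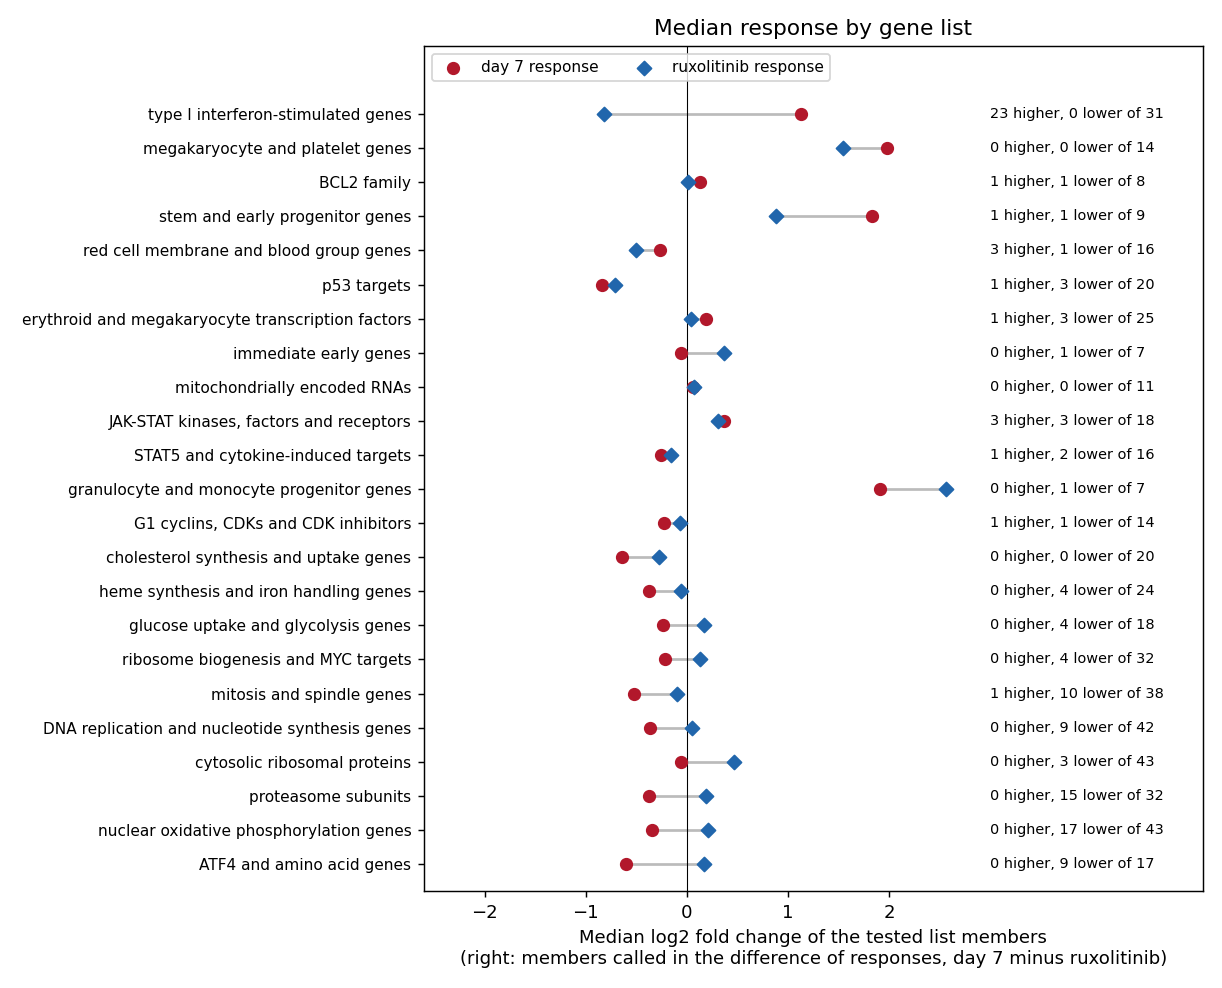
Median log2 day 7 response and median log2 ruxolitinib response for each gene list with at least 7 tested members, with the numbers called higher and lower in the difference at the right. Interferon-stimulated genes have medians on opposite sides of zero (1.13 and -0.82), megakaryocyte genes have both above zero (1.98 and 1.54), and the ATF4, mitosis, proteasome and oxidative phosphorylation lists lie below zero at day 7.

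STAT5 and cytokine-induced targets moved in both directions. Of 16 tested, 6 (37.5%) fell and 2 rose at day 7, where 15.8% of all tested genes fell, and 6 (37.5%) fell and 2 rose under ruxolitinib, where 6.67% fell. Among genes of at least 5 CPM per kb, 2 of 13 fell under ruxolitinib. The list holds the panel of 11 targets named by rule, of which Bcl2l1, Myc and Ccnd2 had day 7 responses of 0.06, 0.45 and -0.33 and ruxolitinib responses of 0.26, 0.37 and -0.09, none of them called (edgeR). Cish and Osm, direct outputs of STAT5, fell under both treatments. Cish had 1.51, 3.38 and 1.59 CPM at day 7, against 28.8, 20.9 and 15.2 CPM in vehicle A. It had 2.59, 1.38 and 1.70 CPM under ruxolitinib, against 28.3, 18.5 and 11.4 CPM in vehicle C. All treated libraries were low and none overlapped its vehicles. Cish fell by 3.36 ± 0.46 at day 7 (edgeR adjusted p = 0.000196) and by 3.36 ± 0.45 under ruxolitinib (edgeR adjusted p = 0.00136). The difference was 0.00 ± 0.51 with a 95% interval between -1.10 and 1.10. Osm, which encodes the cytokine oncostatin M, had 16.4, 19.9 and 15.3 CPM at day 7, against 66.1, 43.1 and 45.1 CPM in vehicle A. It had 23.6, 27.8 and 22.7 CPM under ruxolitinib, against 61.1, 51 and 45.1 CPM in vehicle C. Both falls were called and the groups did not overlap, with a difference of -0.50 and a 95% interval between -1.12 and 0.13.

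Podxl, a sialomucin of the cell surface, fell under both treatments but by unequal amounts. It had 1.47, 2.51 and 1.91 CPM at day 7, against 33.2, 57.9 and 38.8 CPM in vehicle A. It had 26.6, 25.1 and 29 CPM under ruxolitinib, against 77.3, 136 and 61.6 CPM in vehicle C. Every treated library lay below its vehicles, and vehicle C lay above vehicle A. Podxl fell by 4.49 ± 0.36 at day 7 and by 1.77 ± 0.30 under ruxolitinib, and the difference was -2.72 ± 0.44 (edgeR adjusted p = 0.00106). With the animal number as a block the difference was -2.80 and was not called (limma adjusted p = 0.0547).

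Socs2, a feedback inhibitor of cytokine receptors, gave the reverse. It had 13, 30.9 and 10.9 CPM at day 7, against 14.4, 21.9 and 26.7 CPM in vehicle A. It had 3.20, 3.59 and 2.66 CPM under ruxolitinib, against 13, 18.2 and 15 CPM in vehicle C. The day 7 libraries overlapped vehicle A, with replicate 2 the highest of the 12, and the ruxolitinib libraries were all low. The ruxolitinib response was -2.29 ± 0.39 (edgeR adjusted p = 0.00533), the day 7 response -0.21 ± 0.37 (edgeR adjusted p = 0.706), and the difference 2.08 ± 0.53 (edgeR adjusted p = 0.0138). The Socs2 difference was 1.47 without day 7 replicate 2, and it was not called with an offset for GC content and exon length (1.46, edgeR adjusted p = 0.0539). In the difference 1 member of the STAT5 list (6.25%) was higher and 2 (12.5%) lower, against 12.7% and 12.4% of all tested genes. Socs1, Socs3, Pim1 and Id1 averaged 0.045, 0.308, 1.74 and 0.547 CPM and were not tested.

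Kinases and receptors of the pathway differed as well. Jak3, the kinase of the common gamma chain receptors, had 6.64, 2.34 and 2.97 CPM at day 7, against 8.57, 10.5 and 8.71 CPM in vehicle A. It had 26.1, 41.7 and 33.6 CPM under ruxolitinib, against 13.2, 10.3 and 8.67 CPM in vehicle C. The treatments lay on opposite sides of their vehicles, with a difference of -2.85 ± 0.51 (edgeR adjusted p = 0.00172), or -3.45 without day 7 replicate 1. The ruxolitinib response of Jak3 was 1.65 ± 0.35 (edgeR adjusted p = 0.0145) and was not called without ruxolitinib replicate 2 (adjusted p = 0.0737). The day 7 response, -1.20 ± 0.36 (edgeR adjusted p = 0.0265), was not called with the animal number as a block (limma adjusted p = 0.171) or without day 7 replicate 2 or 3 (adjusted p = 0.0883 and 0.0989) or vehicle A replicate 2 or 3 (0.0787 and 0.0541), and was -1.80 without day 7 replicate 1. Epor, the erythropoietin receptor, had 166, 48.3 and 122 CPM at day 7, against 312, 395 and 318 CPM in vehicle A. It had 376, 377 and 304 CPM under ruxolitinib, against 314, 405 and 294 CPM in vehicle C. Epor was low only at day 7, with a difference of -1.67 ± 0.45 (edgeR adjusted p = 0.0183). That call was lost with an offset for GC content (-0.99, edgeR adjusted p = 0.0694).

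Transferrin receptor, which brings iron into the cell, also fell under both treatments. Tfrc had 405, 408 and 392 CPM at day 7, against 2997, 2849 and 2545 CPM in vehicle A. It had 495, 636 and 789 CPM under ruxolitinib, against 1861, 1707 and 2751 CPM in vehicle C. No treated library overlapped its vehicles. The day 7 response was -2.80 ± 0.21 (edgeR adjusted p = 1.51e-06) and the ruxolitinib response -1.72 ± 0.20 (edgeR adjusted p = 0.000724), and the difference of -1.08 ± 0.27 (edgeR adjusted p = 0.0128) was called in all 24 alternatives.

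**Figure D4:**
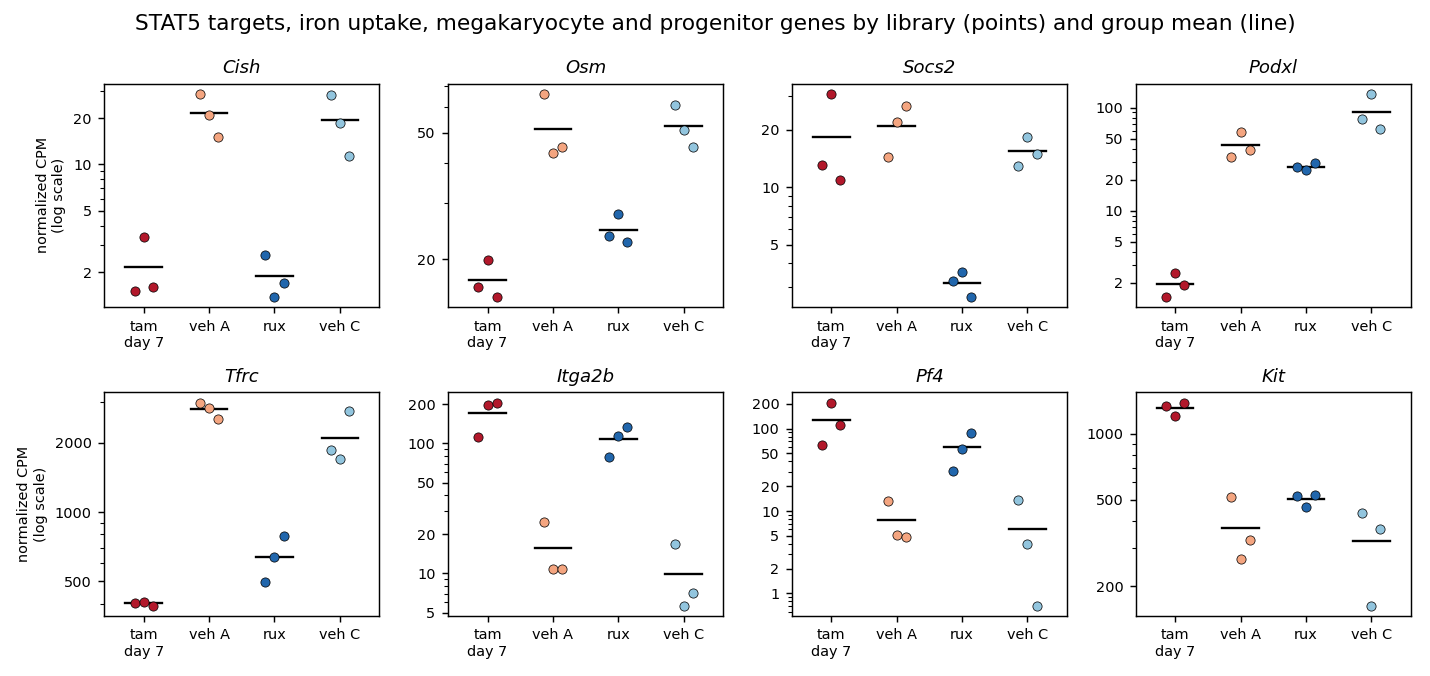
Level of Cish, Osm, Socs2, Podxl, Tfrc, Itga2b, Pf4 and Kit in each of the 12 libraries (points, normalised CPM on a log axis), with the mean of each group as a bar, day 7 left of vehicle A and ruxolitinib left of vehicle C. Cish, Osm, Podxl and Tfrc are low under both treatments, Itga2b and Pf4 are high under both, and Socs2 is low under ruxolitinib only.

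Most megakaryocyte and platelet genes rose at day 7 and some of them under ruxolitinib, with no member called in the difference. Of 37 listed genes 14 were tested, and 12 (85.7%) rose and 1, the thrombin receptor F2r, fell at day 7, where 11.6% of all tested genes rose. Under ruxolitinib 6 (42.9%) rose and none fell, where 2.41% of all tested genes rose. The ruxolitinib count was 2 without ruxolitinib replicate 2 and 3 without ruxolitinib replicate 3. The median difference was 0.57, and its sign changed in 3 of 24 alternatives. At an unadjusted p under 0.05 edgeR counted 2 of the 14 in the difference, and DESeq2, limma with sample weights and limma with the animal block called 1 each. Itga2b, the alpha chain of the platelet fibrinogen receptor, had 111, 197 and 206 CPM at day 7, against 25, 10.9 and 10.8 CPM in vehicle A. It had 78.6, 113 and 134 CPM under ruxolitinib, against 16.9, 5.65 and 7.01 CPM in vehicle C. The groups did not overlap, and Itga2b rose by 3.46 ± 0.47 at day 7 (edgeR adjusted p = 0.000177) and by 3.47 ± 0.47 under ruxolitinib (edgeR adjusted p = 0.00142). The ruxolitinib response of Itga2b was 4.10 without vehicle C replicate 1. The difference was 0.00 ± 0.58 with a 95% interval between -1.25 and 1.24.

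Pf4, the platelet chemokine, had 62.6, 208 and 110 CPM at day 7, against 13.3, 5.16 and 4.85 CPM in vehicle A. It had 30.7, 57.1 and 89.8 CPM under ruxolitinib, against 13.7, 3.94 and 0.709 CPM in vehicle C. All treated libraries were above their vehicles, although the spread was wide, and the difference was 0.75 with a 95% interval between -1.60 and 3.09. The Pf4 ruxolitinib response of 3.28 ± 0.83 (edgeR adjusted p = 0.0284) was not called without ruxolitinib replicate 2 or 3 (adjusted p = 0.0808 and 0.0727) or vehicle C replicate 2 (0.0745), and was 4.68 without vehicle C replicate 1. The Pf4 day 7 response of 4.03 ± 0.85 (edgeR adjusted p = 0.00408) was 4.66 without vehicle A replicate 1. Outside the list, Fxyd5, a regulator of the sodium pump, had 22.5, 33.8 and 29.8 CPM at day 7, against 3.58, 2.54 and 1.44 CPM in vehicle A. It had 20.7, 33.4 and 37.1 CPM under ruxolitinib, against 3.62, 1.66 and 0.840 CPM in vehicle C. Fxyd5 rose in both without overlap, by 3.50 ± 0.50 and 3.90 ± 0.50, with a difference of -0.40 and a 95% interval between -1.81 and 1.02. Lyz2, the lysozyme of myeloid cells, rose by 3.49 ± 0.52 at day 7 (edgeR adjusted p = 0.000378) and by 3.97 ± 0.54 under ruxolitinib (edgeR adjusted p = 0.00142). Without vehicle C replicate 1 the ruxolitinib responses of Fxyd5 and Lyz2 were 4.61 and 4.72.

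Kit and Myb, genes of immature progenitors, rose at day 7. Of 9 tested stem and early progenitor genes, 5 (55.6%) rose and 1, Cd48, fell at day 7, where 11.6% of all tested genes rose. Under ruxolitinib 3 (33.3%) rose, where 2.41% of all tested genes rose. At least Cd34 reached the mean of 10 CPM only through its treated libraries, so these shares too are partly set by the filter. The Cd48 fall of 1.09 (edgeR adjusted p = 0.0456) was lost without any one of several libraries, for example without vehicle A replicate 1 (-0.66, adjusted p = 0.196). In the difference 1 of the 9 was higher and 1, Cd34, lower (11.1% each), near the 12.7% and 12.4% of all tested genes. Cd34, a sialomucin of early progenitors, had 9.92, 14.5 and 13.8 CPM at day 7, against 4.76, 3.32 and 5.64 CPM in vehicle A. It had 10.3, 36.9 and 47.7 CPM under ruxolitinib, against 2.55, 1.66 and 0.315 CPM in vehicle C. Both treatments lay above their vehicles, and the difference of -2.92 ± 0.87 (edgeR adjusted p = 0.0283) was not called with the animal number as a block (limma adjusted p = 0.107) or without any one of 6 libraries (edgeR adjusted p of 0.0512 to 0.0649). Without vehicle C replicate 1 the Cd34 difference was -3.54 and its ruxolitinib response 5.01, against 4.39 ± 0.68 with it. Kit, the stem cell factor receptor, had 1339, 1204 and 1394 CPM at day 7, against 512, 267 and 328 CPM in vehicle A. It had 520, 460 and 526 CPM under ruxolitinib, against 436, 163 and 367 CPM in vehicle C. Neither treatment overlapped its vehicle. The day 7 response was 1.83 ± 0.31 (edgeR adjusted p = 0.000905) and the ruxolitinib response 0.64 ± 0.30 (edgeR adjusted p = 0.202). The difference, 1.19 ± 0.43, was not called (edgeR adjusted p = 0.0584) and was 1.13 with the animal number as a block (limma adjusted p = 0.0253). Myb, a transcription factor that holds back differentiation, had 114, 144 and 156 CPM at day 7, against 36.5, 29.8 and 40.2 CPM in vehicle A. It had 76.8, 81.9 and 86.6 CPM under ruxolitinib, against 58.8, 57.7 and 44.6 CPM in vehicle C. Myb rose at day 7 by 1.96 ± 0.18 (edgeR adjusted p = 7.5e-06). It also rose under ruxolitinib, by 0.61 (edgeR adjusted p = 0.045), a call lost in 12 of 24 alternatives. The Myb difference was 1.35 ± 0.24 (edgeR adjusted p = 0.00186), which was not called when genes of low level were kept in (0.73, adjusted p = 0.143).

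Apoe, an apolipoprotein abundant in macrophages, rose most under ruxolitinib. It had 13.3, 15.4 and 10.4 CPM at day 7, against 1.44, 5.20 and 4.80 CPM in vehicle A. It had 584, 390 and 460 CPM under ruxolitinib, against 8.67, 16.2 and 40.5 CPM in vehicle C. The ruxolitinib libraries lay far above all others. Apoe rose by 4.45 ± 0.55 under ruxolitinib (edgeR adjusted p = 0.00102), and its difference was -2.68 ± 0.71 (edgeR adjusted p = 0.0166). The call was lost in the fit of all 16 MEP libraries of the study (edgeR adjusted p = 0.0755) and with an offset for GC content (-1.86, edgeR adjusted p = 0.092). Vehicle C itself lay above vehicle A, by 2.52 ± 0.53 (edgeR adjusted p = 0.0484). Without vehicle C replicate 3 the Apoe difference was -3.49 and the ruxolitinib response 5.26. The other 17 macrophage genes summed within the range of vehicle C under ruxolitinib. That sum rested largely on Slc40a1, also listed among the iron handling genes, and Cd163. Their ruxolitinib responses of -0.08 and -0.85 were not called (edgeR), and the sum says little of the remaining genes. Complement genes of macrophages, 3 in number, did not move together. C1qa was at 0.318, 0.501 and 0.292 CPM under ruxolitinib, against 0.535, 0.740 and 0.368 CPM in vehicle C. C1qb was at 3.62, 5.39 and 1.09 CPM under ruxolitinib, against 0.475, 1.12 and 0.945 CPM in vehicle C. C1qc was at 1.03, 1.65 and 1.06 CPM under ruxolitinib, against 0.713, 1.21 and 0.341 CPM in vehicle C. The part of macrophages in the Apoe rise was not tested. Kel, which carries the Kell blood group antigen, had 505, 448 and 440 CPM at day 7, against 373, 373 and 320 CPM in vehicle A. It had 186, 183 and 185 CPM under ruxolitinib, against 351, 364 and 323 CPM in vehicle C. The ruxolitinib libraries were nearly identical and low, with a response of -0.91 ± 0.11 (edgeR adjusted p = 0.00107), and the difference was 1.29 ± 0.16 (edgeR adjusted p = 0.000165), which was not called when genes of low level were kept in (0.66, adjusted p = 0.175).

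The calls were unevenly spread over expression levels, exon lengths and GC content. Of 136 genes with a mean under 1 CPM per kb of exon, 110 (80.9%) were higher in the difference and none lower, whereas of 637 genes over 100 CPM per kb 9 (1.41%) were higher and 158 (24.8%) lower. Between 5 and 20 CPM per kb the shares were 9.24% higher and 10.5% lower. With exons of at most 2980 bases 2.68% were higher and 20.1% lower, and in the bin of longest exons, from 7250 bases, 31.8% and 4.67%. At a GC content of 33.1% to 44.4% the shares were 13.8% higher and 7.85% lower, and from 53.6% to 66.8% they were 6.01% and 19.2%. The 12 largest negative differences had a GC content of 49.95% to 62.75%. The parts of level, length and GC content were not told apart. The 12 largest positive differences were chosen with the same requirement of separation, with unnamed transcripts, pseudogenes and receptor segments passed over. Of these, 10 belonged to long genes of low level (Nrxn3, Prtg, Hmcn1, Lrp2, Sorl1, Etl4, Lrp4, Dnahc9, Adamtsl1 and Sdk2), many of them typical of neurons or epithelia. Their exons spanned 9158 to 21191 bases and their mean levels 0.586 to 1.11 CPM per kb. None of the 10 was called at day 7 (responses of 0.75 to 1.33), and their ruxolitinib responses lay between -4.01 and -3.53. For 9 of them, all but Sorl1, the ruxolitinib call was lost with the animal number as a block.

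Sorl1, a sorting receptor, had 21, 35.6 and 13 CPM at day 7, against 10.5, 10.4 and 20.4 CPM in vehicle A. It had 0.611, 0.251 and 0.319 CPM under ruxolitinib, against 4.58, 6.86 and 7.62 CPM in vehicle C. Day 7 and vehicle A overlapped, and the ruxolitinib libraries were low. The 1416 odorant and pheromone receptor genes, which blood cells are not known to use and none of which was tested, moved in the same way. They took 0.0886%, 0.167% and 0.0721% of counts at day 7, against 0.0334%, 0.0449% and 0.0581% in vehicle A. They took 0.00369%, 0.00267% and 0.00121% under ruxolitinib, against 0.0192%, 0.0281% and 0.00796% in vehicle C. Day 7 lay above vehicle A and ruxolitinib below vehicle C without overlap, the difference of the 2 log2 changes in the summed level per length being 3.93. The part of this background in the calls of low genes was not tested.

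**Figure D5:**
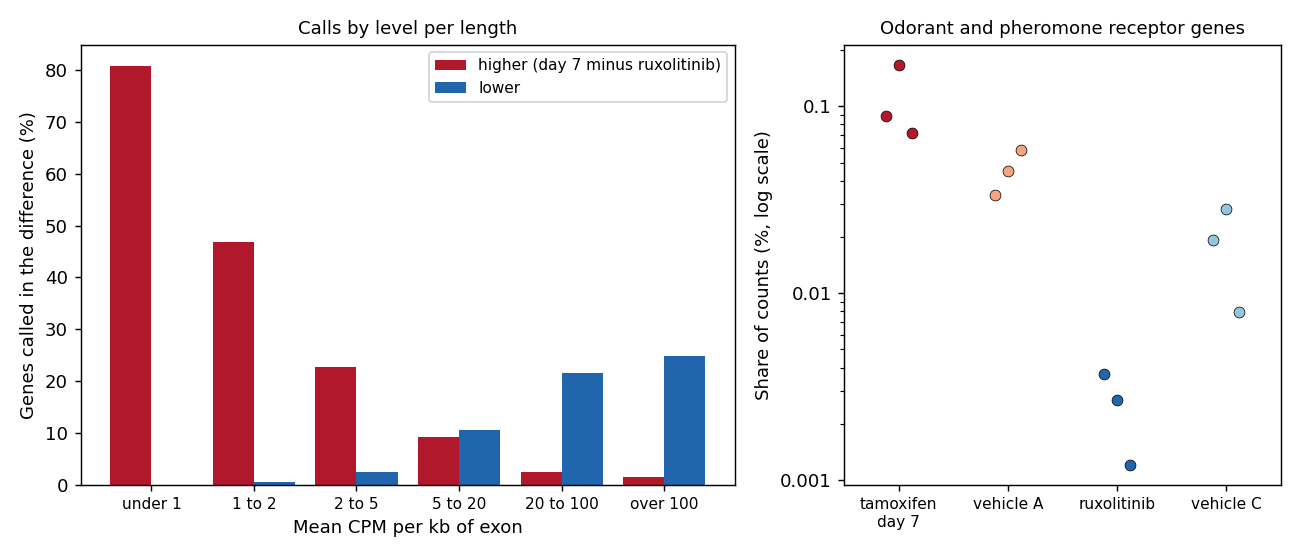
Left, percent of tested genes called higher and called lower in the difference by mean level (CPM per kb of exon). Right, percent of counts in odorant and pheromone receptor genes in each library on a log axis, with day 7 left of vehicle A and ruxolitinib left of vehicle C. Higher calls make up 80.9% of genes in the lowest tier and 1.41% in the highest, and receptor shares are highest at day 7 and lowest under ruxolitinib.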

How the data were processed

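RNA of sorted MEPs was sequenced from both ends after library construction with a Takara kit (HT-Seq), per the labels' protocols. Per the submitters' processing notes, reads were processed with STAR and featureCounts on mm10, and the authors deposited raw gene counts; versions, annotation, strand and the treatment of reads with several matches are not stated, so overlapping genes and near-identical copies cannot be told apart. Counts were analysed with R 4.3.3 and edgeR 4.0.16: TMM factors, 8144 genes with a mean of at least 10 CPM over the 12 libraries, 1 mean per group, a quasi-likelihood F test (two-sided), Benjamini-Hochberg adjustment at 0.05, SE from the log2 value and F, and 95% intervals. Alternatives used limma 3.58.1 and DESeq2 1.42.0. Lengths and GC content came from GENCODE M21 (8049 symbols matched).

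Members, gene lists and the rule for named genes were chosen with earlier results of these data known. Named were Jak2 and a panel of 11 STAT5 targets, the 12 largest positive and 12 largest negative differences whose libraries in at least 1 treatment lay on one side of the vehicles, the 6 largest opposite and 8 largest shared responses, and up to 4 members of each list. Unnamed transcripts, pseudogenes and receptor segments were passed over. Some named genes are not reported here. Libraries within a group differed by far more than sampling noise (chi-square per degree of freedom of 24.8 to 374), so each counts as 1 sample. Vehicle libraries of the same animal number deviated together (r across genes of 0.69, 0.63 and 0.31), which is why the animal number was used as a block in limma (correlation 0.488). Intervals cover the spread between samples only.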

Additional observations from a re-analysis of the deposited data

How the results depend on the processing

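Among the named genes' differences, 3196 values under the alternatives kept their side of the threshold, 213 lost the call and 63 gained one. Another 2 turned sign with a call in at least 1 of the fits compared. The 3196 include uncalled values that turned sign, such as Myc, whose difference ran between -0.68 and 0.33. The filter on low genes mattered most. Without it 10888 genes were called in the difference and 10141 under ruxolitinib, and with filterByExpr 10603 and 9375, with 78.4% and 70.8% of the calls in the difference higher, against 50.6% in the main result. In those fits the median difference over all genes was 1.67 and 1.06. There the Ermap difference was -0.006 and -0.147 and the Kel day 7 response -0.076 and -0.059, reversed from the main values. Genes refitted at 5 CPM per kb or more gave 1164 calls in the difference (40.5% higher) and 238 under ruxolitinib. DESeq2 called 1227 and limma with sample weights 1267 genes under ruxolitinib, and sample weights 3403 at day 7. The share of higher ruxolitinib calls, 26.5% in the main result, was 48.9% with sample weights, 45.5% with the animal block, 43.1% without vehicle C replicate 3 and 41.3% with a GC and length offset. Leaving out 1 library at a time gave 1416 to 2566 calls in the difference, 1574 to 2716 at day 7, 187 to 1296 under ruxolitinib and 0 to 482 between the vehicles.

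The vehicle shift, 70 genes in the main result, was 106 with RLE factors, 619 with DESeq2, 33 with sample weights, 793 without a filter, 852 with filterByExpr, 138 with all 16 MEP libraries, 44 at 5 CPM per kb or more, 175 with a GC offset and 172 with a GC and length offset. With the animal number as a replicate block it was 1025, and that block gave 2411 calls in the difference, 1865 at day 7 and 865 under ruxolitinib. With the replicate number of the titles as a block the counts were 2449, 2631 and 991. The titles do not say that a number marks a shared litter or day, and samples of different groups with the same number did not all deviate together. The causes of these changes were not tested. The lowest depth, in day 7 replicate 2, limits what can be seen of low genes.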

Other observations

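Some further genes, chosen after their values were seen, are given here as values. Neat1, a nuclear RNA that scaffolds paraspeckles, had 98.1, 108 and 107 CPM at day 7, against 59.3, 91.8 and 68.8 CPM in vehicle A, and 10.3, 6.50 and 13.4 CPM under ruxolitinib, against 50, 64.9 and 37.1 CPM in vehicle C. Malat1, another abundant nuclear RNA, had 957, 1188 and 1213 CPM at day 7, against 742, 306 and 461 CPM in vehicle A, and 60.2, 56.5 and 91.2 CPM under ruxolitinib, against 466, 186 and 347 CPM in vehicle C. Both nuclear RNAs were high at day 7 and low under ruxolitinib, without overlap with the vehicles. The unnamed transcript 1700048O20Rik had 26.2, 33.3 and 11.2 CPM at day 7, against 10.1, 10.1 and 21.4 CPM in vehicle A. Under ruxolitinib it had 0, 0.0627 and 0 CPM, against 11.2, 10.5 and 20.9 CPM in vehicle C. The unnamed transcript 3830403N18Rik had 0.293, 0.606 and 0.477 CPM at day 7, against 0, 0.0437 and 0.149 CPM in vehicle A. Under ruxolitinib it had 83.8, 99.4 and 135 CPM, against 0.0891, 0 and 0.0525 CPM in vehicle C.

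Igkc, a member of the lymphoid gene list that encodes the constant region of the kappa antibody chain and marks B lineage cells, had 52.3, 24.7 and 39.4 CPM at day 7. It was at or below 0.568 CPM in vehicle A, 1.38 CPM under ruxolitinib and 0.327 CPM in vehicle C. Csrp3, best known as a muscle protein, had 30.5, 39.2 and 40.3 CPM at day 7, against 1.49, 1.83 and 3.32 CPM in vehicle A. It had 9.63, 10.8 and 13.3 CPM under ruxolitinib, against 3.42, 3.94 and 3.10 CPM in vehicle C, so that it was high under both treatments and highest at day 7.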
